A study of Mus musculus with 12 samples.

Results

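The genes described here carry out antigen presentation by MHC class II in the mouse spleen. They were chosen by symbol as the class II chains, the peptide loading machinery and the class II transactivator, which gave 10 genes (H2-Aa, H2-Ab1, H2-Eb1, H2-DMa, H2-DMb1, H2-DMb2, H2-Oa, H2-Ob, Cd74 and Ciita) of the 18221 genes listed. All 10 were among the 12671 genes with an RPKM (reads normalised to transcript length and mapped reads) of 1 or more in 3 or more mice, which were the genes tested. Class II molecules are pairs of an alpha and a beta chain that show peptides from the endosomes to CD4+ T cells. The invariant chain Cd74 holds the groove until the endosome, H2-DM then exchanges its last fragment for a peptide, and H2-O holds H2-DM back. Ciita is the co-activator that switches these genes on together, and in the spleen they are mainly transcribed in B cells, dendritic cells and macrophages.

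Spleens of 12 mice were studied in 4 groups of 3, all male, of the outbred stock ICR and 3 weeks old at the start. Con-sa mice were dosed with saline and B-sa mice received a single injection of busulfan, an alkylating drug that depletes blood-forming cells, at 40 mg/kg and then saline. B+Con-FMT and B+A10-FMT mice received the same busulfan and then a fecal microbiota transfer (FMT), which was 0.1 mL by mouth each day for 2 weeks of pooled luminal content of the small intestine. The donors of B+Con-FMT were control mice, and those of B+A10-FMT had been dosed with alginate oligosaccharide at 10 mg/kg for 3 weeks. The study's methods place the collection of the samples 3 weeks after the end of the transfers. The question was how the class II genes stood after busulfan and whether either transfer changed them. No group received a transfer without busulfan, and the content of each donor group was pooled, so that 1 donor pool stands for each kind of donor.

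Depth, estimated from the smallest steps between RPKM values, lay between 14700000 and 16200000 reads. Globin genes made up 23.3% to 32.4% of the summed RPKM, and markers of pancreatic acinar cells, a tissue that lies against the spleen, summed to 5667 to 8789 RPKM in B+Con-FMT and to between 330 and 6922 RPKM in the other mice. Hbb-bs, a beta-globin gene, was at 9.2 to 30.5 RPKM in the B-sa mice and at 36.4 RPKM in mouse 1 of B+Con-FMT. In the other 8 mice it was at 4024 to 45902 RPKM, so the B-sa mice also shared a low level of this gene. All globin genes together made up 28%, 32.4% and 30.3% of the summed RPKM in the B-sa mice, so globin as a whole was not low in them. Setting the totals outside the globin genes equal raised the number of class II genes called from 6 to 9 between B-sa and Con-sa, from 4 to 8 between B+Con-FMT and Con-sa and from 1 to 3 between B+A10-FMT and B+Con-FMT. It took the calls over all genes from 1838 to 1682, from 1124 to 1836 and from 1312 to 2339 in these comparisons, whereas the part of the acinar markers and of Hbb-bs in the class II values was not tested. The B cell marker Cd79a was present in every mouse, at 530 to 745 RPKM.

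On the GRCm38.p6 assembly, 8 of the genes lie on chromosome 17 in the major histocompatibility complex, in the order H2-Oa (chr17:34092379-34095234), H2-DMa (chr17:34119693-34139101), H2-DMb2 (chr17:34143229-34151553), H2-DMb1 (chr17:34153191-34160229), H2-Ob (chr17:34238905-34245908), H2-Ab1 (chr17:34263227-34269418), H2-Aa (chr17:34282744-34287823) and H2-Eb1 (chr17:34305867-34316674). The other 2 genes, Cd74 and Ciita, are on other chromosomes.

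Promoters of class II genes carry an X box, where the RFX complex binds, and downstream of it a Y box, where NF-Y binds, and Ciita docks on the proteins that sit on both. RefSeq promoter windows of 300 bases, which run from 250 bases before an annotated transcript start on GRCm38.p6, were given for 7 of the 10 genes, with 2 windows for H2-DMa. The windows of H2-DMa and H2-DMb2 lie inside the gene spans given above. The following stretches, each upstream of the transcript start of its window and 5′ to 3′ on the strand of the gene, are shown because they hold the shared letters. Capitals mark AAC and ATGATG with 2 bases of any kind between them, taken from the X box, and TGATTGG, which holds the core of the Y box.
H2-Eb1: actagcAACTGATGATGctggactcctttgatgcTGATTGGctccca
H2-DMb1: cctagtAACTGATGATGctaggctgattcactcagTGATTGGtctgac
H2-DMb2: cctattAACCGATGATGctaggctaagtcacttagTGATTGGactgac
H2-Ob: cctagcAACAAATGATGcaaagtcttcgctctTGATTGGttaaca
H2-Aa: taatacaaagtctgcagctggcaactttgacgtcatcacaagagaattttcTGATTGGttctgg
H2-Oa: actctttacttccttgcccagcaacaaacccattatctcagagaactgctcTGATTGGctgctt
These stretches are chr17:34305772-34305818 for H2-Eb1, chr17:34153093-34153140 for H2-DMb1, chr17:34145122-34145169 for H2-DMb2, chr17:34238814-34238858 for H2-Ob and chr17:34092283-34092346 for H2-Oa on the plus strand, and chr17:34287861-34287924 for H2-Aa on the minus strand. Both strands were searched in all windows, and the letters were chosen after reading the windows of these genes. The Y box letters were in the windows of 6 of the 7 genes and in 7.82% of all 32851 windows. The X box letters were in 4 of the 8 class II windows and in 0.137% of all windows. Both occurred together in 9 windows of 7 genes (0.0274%), of which 4 were those of H2-Eb1, H2-DMb1, H2-DMb2 and H2-Ob. In these 4 genes 15 to 18 bases lay between the X and the Y letters, and the Y letters began 59 to 92 bases before that transcript start. Of these sets of letters, the stretches of H2-Aa and H2-Oa held the Y letters alone, and neither H2-DMa window held either set. X boxes with other letters were not searched for, so an X box is not shown to be absent from these genes.

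Levels, which RPKM gives per length and which can so be set side by side, ran over a wide range. Cd74 was highest in every mouse, with a median of 3539 RPKM and a range of 3004 to 4274. H2-Aa followed with a median of 1646 RPKM (1453 to 1968) and H2-Ab1 with 1011 RPKM (863 to 1150), and the ranges of these 3 genes did not overlap. H2-Eb1 (median 223 RPKM) and H2-DMb2 (206 RPKM) overlapped each other. H2-DMb1 (132 RPKM), H2-Ob (97.2 RPKM), H2-DMa (80.8 RPKM) and H2-Oa (64.3 RPKM) followed, each overlapping with its neighbour among these 4. Ciita was lowest, at 25.5 to 41.1 RPKM. Together the 10 genes summed to between 7353 and 8316 RPKM for Con-sa mice, 6180 and 7326 for B-sa mice, 6521 and 6995 for B+Con-FMT mice and 6917 and 7297 for B+A10-FMT mice, which was between 0.8% and 1.19% of all RPKM.

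**Figure D1:**
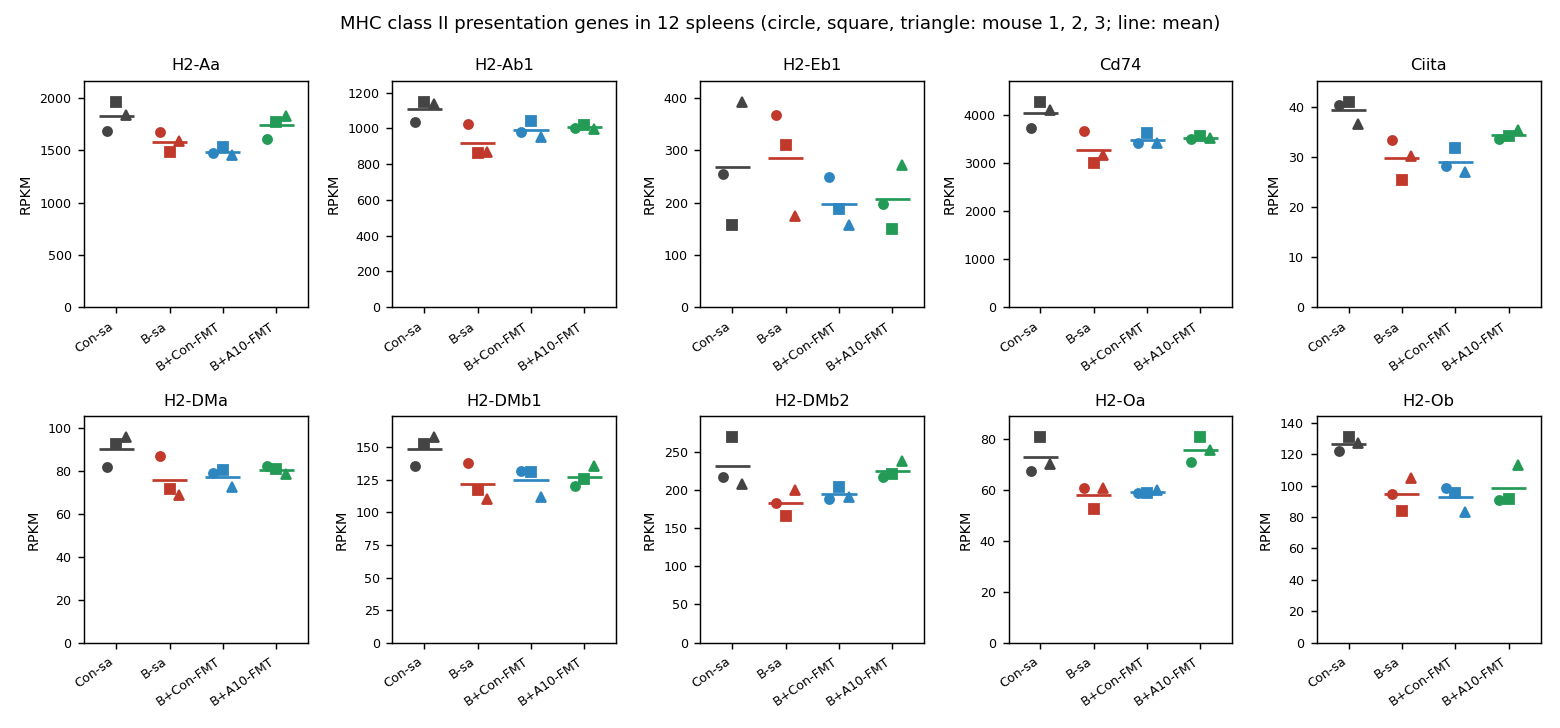
RPKM of the 10 class II genes (vertical axes from 0, one panel per gene) in each of the 12 mice, by group; circles, squares and triangles are mouse 1, 2 and 3 of a group and lines are group means. H2-Ob and Ciita of all 3 B-sa mice lay below all 3 Con-sa mice, H2-Oa was higher in all 3 B+A10-FMT mice than in any B-sa or B+Con-FMT mouse, and H2-Eb1 ran from 149 to 393 RPKM with no order by group.

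Busulfan with saline was followed by lower class II transcripts. Of the 10 genes, 6 were lower in the B-sa mice at an adjusted p under 0.05 (limma on log2(RPKM + 1), Benjamini-Hochberg over all genes tested), where 14.5% of all tested genes were called in either direction. These were Ciita, H2-Ob, H2-DMb2, H2-Oa, Cd74 and H2-Ab1, and the other 4 were not called. The median log2 fold change of the 10 genes was -0.30, beside -0.04 over all tested genes, and 9 of 10 lay below 0. The count rested on single mice, since it was 0 without mouse 2 of B-sa, 1 without mouse 2 of Con-sa and 8 without mouse 1 of B-sa, and it was 2 when the fit held these groups alone. Equal totals outside the globin genes raised it to 9 and transcripts with curated (NM) identifiers alone lowered it to 4. With 1 mouse left out, the call was kept in 5 of 6 fits for Ciita, in 4 for H2-Ob, H2-Oa and Cd74, and in 2 for H2-DMb2 and H2-Ab1, and H2-DMb2 kept it in 4 of the 9 other settings (adjusted p up to 0.088).

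Ciita, the transactivator (chr16:10480014-10531064), was at 40.4, 41.1 and 36.7 RPKM in the Con-sa mice and at 33.5, 25.5 and 30.2 RPKM in the B-sa mice. The groups did not overlap, and the fold change was -0.40 on the log2 scale (SE 0.088, adjusted p = 0.0129). H2-Ob, the beta chain of H2-O, stood at 122, 131 and 127 RPKM in Con-sa and at 94.7, 83.8 and 105 RPKM in B-sa. All 3 B-sa mice were below all Con-sa mice, with a log2 fold change of -0.42 (SE 0.098, adjusted p = 0.0167). H2-Oa, its alpha chain, was at 67.6, 80.9 and 70.4 RPKM against 60.9, 52.7 and 60.9 RPKM, again without overlap (log2 fold change -0.32, SE 0.076, adjusted p = 0.0178).

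Cd74, the invariant chain (chr18:60803849-60812652), was at 3716, 4274 and 4096 RPKM in Con-sa and at 3656, 3004 and 3154 RPKM in B-sa. Mouse 1 of B-sa lay just under the lowest Con-sa mouse, and the log2 fold change was -0.30 (SE 0.069, adjusted p = 0.0151). Of the classical pair, H2-Ab1 was at 1035, 1150 and 1137 RPKM against 1026, 863 and 868 RPKM (log2 fold change -0.27, SE 0.067, adjusted p = 0.022). Its partner H2-Aa was at 1684, 1968 and 1842 RPKM against 1679, 1486 and 1589 RPKM and missed the threshold (log2 fold change -0.21, adjusted p = 0.0529). In both chains mouse 1 of B-sa was the one nearest to Con-sa.

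H2-DM, the peptide exchange factor, has 1 alpha chain gene and 2 beta chain genes, and reads of H2-DMb1 and H2-DMb2 may have been split between these near copies by the counting. H2-DMb2 was at 217, 269 and 207 RPKM in Con-sa and at 182, 166 and 200 RPKM in B-sa (log2 fold change -0.33, adjusted p = 0.0325). H2-DMb1 and H2-DMa had values of similar size that missed the threshold, with log2 fold changes of -0.29 (adjusted p = 0.0515) and -0.25 (adjusted p = 0.0619), and in both mouse 1 of B-sa was above the lowest Con-sa mouse. Summed over both beta genes, the RPKM were 353, 422 and 365 in Con-sa and 320, 283 and 310 in B-sa, which did not overlap.

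**Figure D2:**
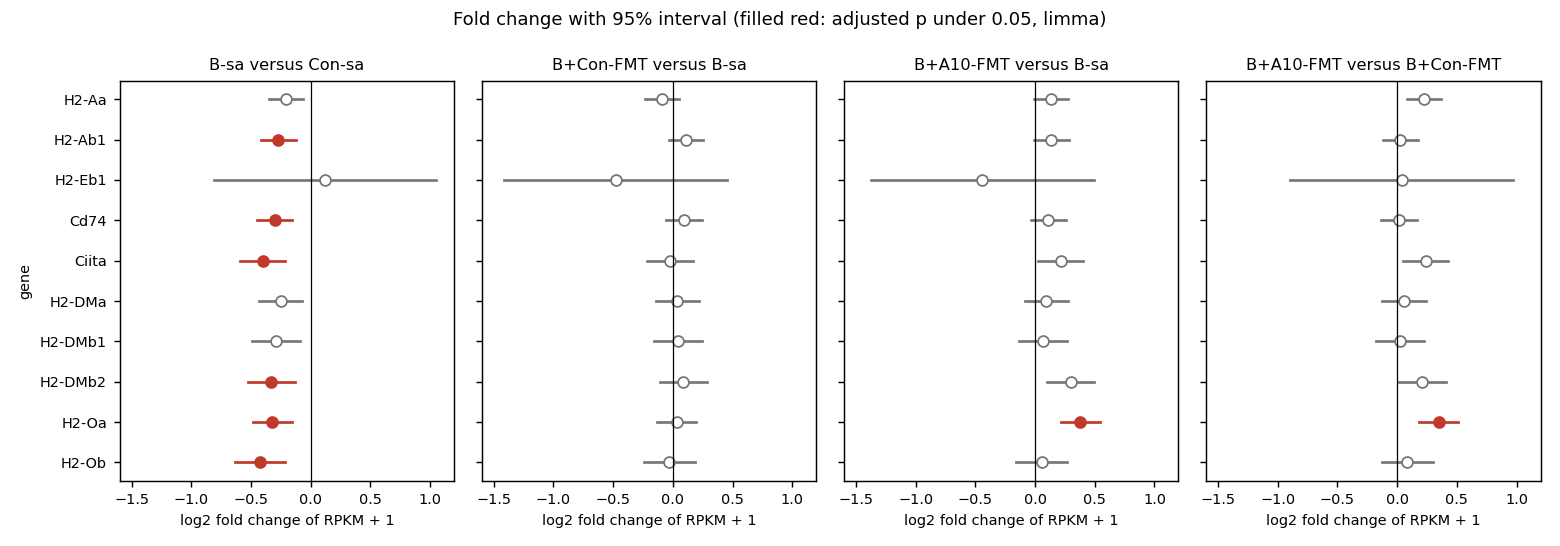
Log2 fold change of RPKM + 1 (horizontal axes) of each class II gene with its 95% interval in 4 comparisons; filled red points had an adjusted p under 0.05. After busulfan with saline 6 genes were lower, none was called between B+Con-FMT and B-sa, H2-Oa alone was called in both comparisons of B+A10-FMT shown, and the interval of H2-Eb1 was the widest in each panel.

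Markers of B cells, the main class II cells of the spleen by number, fell beside the class II genes. Of 12 B cell markers, 9 were called lower after busulfan with saline, where 14.5% of all tested genes were called in either direction. The median log2 fold change of the 12 markers was -0.32, against -0.30 for the class II genes. Their summed RPKM was 2752 to 3006 in Con-sa and 2112 to 2550 in B-sa, and no marker was at 0. The summed class II RPKM divided by the summed B cell marker RPKM was 2.67, 2.77 and 2.76 in the Con-sa mice and 2.87, 2.93 and 2.79 in the B-sa mice, so the ratio was not lower after busulfan. When each mouse was divided by the geometric mean of its 12 B cell markers, a scaling added after the data were seen, 0 of the 10 class II genes were called between B-sa and Con-sa, where 6034 of the 12671 tested genes were called under this scaling. The scaled log2 fold changes of Ciita and H2-Ob were -0.09 and -0.10, and that of Cd74 was 0.02, while the median of all tested genes moved from -0.04 to 0.24. In whole spleen, fewer cells of a type and less RNA per cell cannot be told apart. Dendritic cell markers were called lower for 3 of 10 (summed RPKM 194 to 199 in Con-sa and 146 to 170 in B-sa). Macrophage markers were called lower for 1 of 8 (367 to 387 and 320 to 366), which was near the 14.5% of all tested genes. The part of dendritic cells and macrophages in the class II values was not tested.

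**Figure D3:**
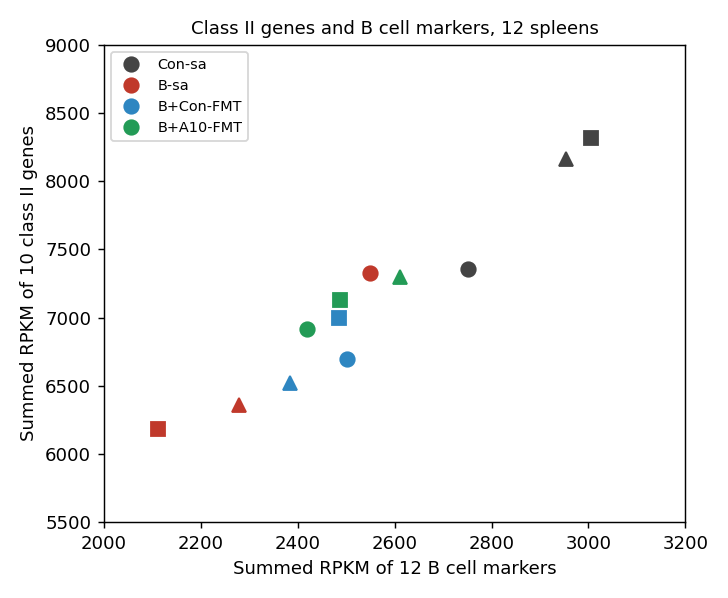
Summed RPKM of the 10 class II genes (vertical axis) against the summed RPKM of 12 B cell markers (horizontal axis), one point per mouse, with shapes for mouse 1, 2 and 3; neither axis starts at 0. Mice 2 and 3 of B-sa have the lowest values on both axes and mice 2 and 3 of Con-sa the highest.

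No other gene listed for the pathway was called after busulfan with saline. Of 18 other genes of the class II pathway, 0 were called between B-sa and Con-sa by limma, where 14.5% of all tested genes were called. At that share few calls would fall in a list of this size. The median log2 fold change of the 18 genes was 0.005. Nfya and Nfyb, subunits of NF-Y, had log2 fold changes of -0.295 and 0.202 (adjusted p = 0.113 and 0.0657). Rfx5, a subunit of the X box complex, was at 20.1 RPKM ± 0.588 (SD, n = 3) in Con-sa and 17.4 RPKM ± 1.93 in B-sa (log2 fold change -0.21, adjusted p = 0.118). The endosomal protease Ctss, which trims the invariant chain, and the thiol reductase Ifi30 had log2 fold changes of -0.04 and -0.02. H2-Eb2, a further class II beta gene, was low throughout at 7.82 to 13 RPKM. MHC class I genes gave 0 calls of 14 and interferon-gamma response genes 0 of 10, beside the same 14.5% of all tested genes. The class I transactivator Nlrc5 had a log2 fold change of 0.06 (adjusted p = 0.786), against -0.40 for Ciita. The difference between these lists was not tested.

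With transfer from control donors no class II gene differed detectably from B-sa. Between B+Con-FMT and B-sa 0 of the 10 genes were called by limma, where 0.844% of all tested genes were called, and 0 had an unadjusted p under 0.05, which 18.4% of all tested genes had. The log2 fold changes ran from -0.48 for H2-Eb1 to 0.11 for H2-Ab1. Ciita was at 28.3, 31.9 and 27 RPKM in B+Con-FMT and its interval against B-sa ran from -0.22 to 0.17, and that of Cd74 ran from -0.05 to 0.24. Against Con-sa, which is also the reference of B-sa above, 4 genes were lower in B+Con-FMT, where 8.87% of all tested genes were called. These were H2-Aa (log2 fold change -0.30, adjusted p = 0.0198), H2-Oa (-0.29, adjusted p = 0.0352), H2-Ob (-0.45, adjusted p = 0.0175) and Ciita (-0.43, adjusted p = 0.0147). With 1 mouse left out, H2-Oa lost its call in all 6 fits (adjusted p of 0.0501 to 0.12), H2-Aa in 4 of 6, Ciita in 3 of 6 and H2-Ob in 2 of 6, and H2-Oa kept its call in 5 of the 9 other settings. All 10 genes lay below 0 there, with a median of -0.27 beside -0.04 over all genes. The count was 0 without mouse 2 of Con-sa, 1 without mouse 1 or without mouse 3 of B+Con-FMT, 2 without mouse 1 or without mouse 3 of Con-sa, and 8 with equal totals outside the globin genes. B cell markers were lower for 5 of 12 in this comparison, dendritic cell markers for 2 of 10 and macrophage markers for 2 of 8, and T cell markers were higher for 3 of 8. The part of these cells in the class II values was not tested.

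With transfer from the alginate oligosaccharide donors, H2-Oa was the only class II gene called, and it was higher. Against B-sa 1 of the 10 genes was called in B+A10-FMT, where 5.27% of all tested genes were called, and against B+Con-FMT again 1 was called, where 10.4% were. The count of 1 of 10 was thus at the share of all genes against B+Con-FMT and near it against B-sa. It does not set the class II genes apart from other genes. Both calls were H2-Oa, the alpha chain of the inhibitor H2-O. H2-Oa was at 71.1, 80.8 and 75.7 RPKM in B+A10-FMT, which put all 3 mice above all B-sa mice (52.7 to 60.9 RPKM) and all B+Con-FMT mice (58.9 to 60.1 RPKM) and inside the range of Con-sa. The log2 fold change was 0.38 against B-sa (SE 0.076, adjusted p = 0.0179) and 0.35 against B+Con-FMT (SE 0.076, adjusted p = 0.0164), and these comparisons share the B+A10-FMT mice. The first call was lost without mouse 2 of B-sa and without mouse 2 of B+A10-FMT, and the highest adjusted p over the mice left out was 0.0861. The second was lost without mouse 1 or mouse 2 of B+Con-FMT and without mouse 2 of B+A10-FMT, with a highest adjusted p of 0.082. Under the other 9 settings tried the adjusted p of H2-Oa was 0.0158 to 0.0494 in the first comparison and 0.00578 to 0.0333 in the second. Scaled to the B cell markers, the log2 fold changes were 0.27 (adjusted p = 0.112) and 0.30 (adjusted p = 0.06).

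H2-Ob, the partner of H2-Oa, was not called in these comparisons. It was at 90.7, 91.5 and 113 RPKM in B+A10-FMT, with 94.7, 83.8 and 105 RPKM in B-sa and 98.7, 95.6 and 83.2 RPKM in B+Con-FMT, and the log2 fold changes of B+A10-FMT were 0.05 and 0.08 against these groups. All 9 busulfan-treated mice were below all 3 Con-sa mice for H2-Ob, and its log2 fold change between B+A10-FMT and Con-sa was -0.37 (adjusted p = 0.145). The ratio of H2-Oa to H2-Ob within a mouse was 0.554, 0.618 and 0.553 in Con-sa, 0.644, 0.629 and 0.578 in B-sa, 0.596, 0.617 and 0.723 in B+Con-FMT and 0.784, 0.883 and 0.672 in B+A10-FMT. All B+A10-FMT mice were above all Con-sa and B-sa mice and mouse 3 was below mouse 3 of B+Con-FMT. By exact two-sided permutation test of the log2 ratio, p was 0.1 against Con-sa and against B-sa, the smallest that 3 against 3 mice allow, and 0.2 against B+Con-FMT. Over the 18 ratio comparisons made, which were added after the data were seen, the adjusted p of these were 0.3, 0.3 and 0.4.

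**Figure D4:**
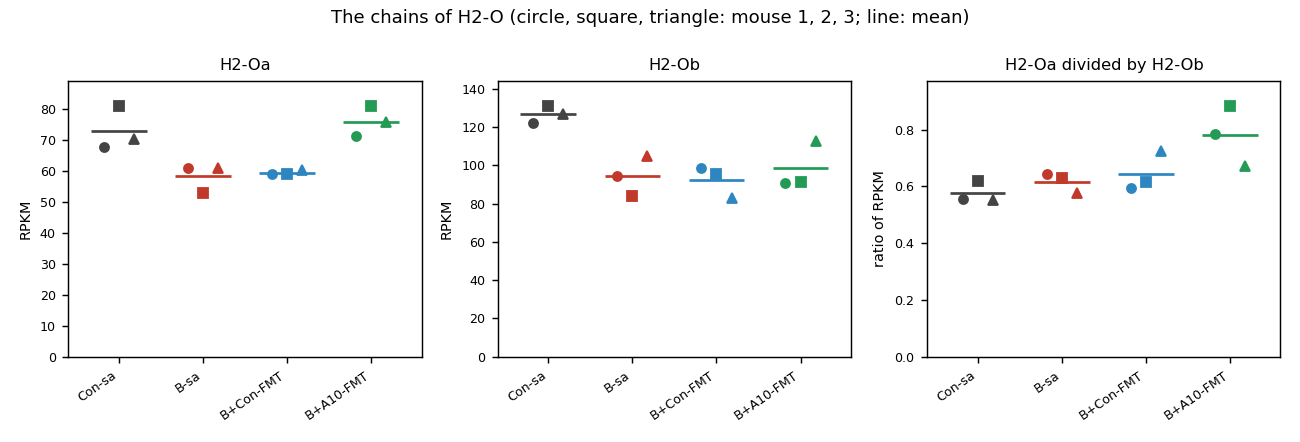
RPKM of H2-Oa and H2-Ob and their ratio within a mouse (vertical axes from 0), by group; shapes are mouse 1, 2 and 3 and lines are group means. H2-Oa of the B+A10-FMT mice (71.1 to 80.8 RPKM) lies with Con-sa, H2-Ob (90.7 to 113 RPKM) lies with the other busulfan groups, and the ratio reaches 0.883.

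Ciita, H2-DMb2 and H2-Aa of the B+A10-FMT mice were above those of all B+Con-FMT mice without passing the test. They are named for this separation, while H2-Ab1, H2-Eb1, H2-DMa, H2-DMb1, H2-Ob and Cd74 overlapped between these groups. How many of all genes separate in this way was not counted. Between these groups 28.9% of all tested genes had an unadjusted p under 0.05 by limma. Ciita was at 33.6, 34.3 and 35.5 RPKM in B+A10-FMT, above all mice of B-sa and B+Con-FMT and below all of Con-sa, with log2 fold changes of 0.21 against B-sa (adjusted p = 0.158) and 0.24 against B+Con-FMT (adjusted p = 0.0972). H2-DMb2 was at 217, 220 and 237 RPKM, above all B-sa and B+Con-FMT mice (log2 fold changes 0.30 and 0.21, adjusted p = 0.0736 and 0.147) and inside the range of Con-sa (log2 fold change -0.03 against it). H2-Aa was at 1614, 1775 and 1829 RPKM in B+A10-FMT and at 1476, 1538 and 1453 RPKM in B+Con-FMT, and the difference missed the threshold (log2 fold change 0.22, adjusted p = 0.0504), while its log2 fold change against Con-sa was -0.07. None of these passed the test in either comparison.

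H2-Aa and H2-Ab1 encode the chains of 1 molecule, and their ratio was lowest in B+Con-FMT. H2-Ab1 was at 978, 1039 and 951 RPKM in B+Con-FMT and at 1004, 1018 and 998 RPKM in B+A10-FMT, which overlapped. H2-Aa divided by H2-Ab1 was 1.51, 1.48 and 1.53 in B+Con-FMT and between 1.61 and 1.83 in the other 9 mice, so the 3 B+Con-FMT mice had the lowest ratios of all. The exact permutation p was 0.1 against each other group (adjusted p = 0.3 over the 18 comparisons). H2-DMa divided by H2-DMb1 stayed between 0.581 and 0.685 in all mice. Against Con-sa, 0 of the 10 class II genes were called in B+A10-FMT by limma, where 0.41% of all tested genes were called, while H2-Ob, Cd74 and H2-DMb1 had unadjusted p of 0.0024, 0.0156 and 0.0296, and 13.5% of all tested genes had one under 0.05. The median of the 10 genes was -0.17, beside 0.005 over all genes.

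Markers of other cells that carry class II were also called in the B+A10-FMT comparisons. Macrophage markers were higher for 4 of 8 against B-sa and for 7 of 8 against B+Con-FMT, with summed RPKM of 401 to 487 in B+A10-FMT, 320 to 366 in B-sa and 291 to 384 in B+Con-FMT, and for 0 of 8 against Con-sa by limma (367 to 387 RPKM). Dendritic cell markers were called for 0 of 10 against B-sa and against Con-sa and were higher for 2 of 10 against B+Con-FMT (summed RPKM 168 to 186 in B+A10-FMT and 153 to 174 in B+Con-FMT). B cell markers were called for 0 of 12 against B-sa and against Con-sa and were lower for 1 of 12 against B+Con-FMT. Over all tested genes 5.27% were called against B-sa and 10.4% against B+Con-FMT, so the dendritic cell and B cell counts were near that share. Of the other class II pathway genes, the lysosomal protease Ctsl was lower against B-sa (log2 fold change -0.19, adjusted p = 0.0436), and Ctsb was higher against B+Con-FMT (0.28, adjusted p = 0.0409). Marchf1, a ubiquitin ligase that removes class II from the surface, was lower in B+Con-FMT than in Con-sa (-0.39, adjusted p = 0.0381). Each of these comparisons called 1 of the 18 genes on that list. Beside this, 5.27%, 10.4% and 8.87% of all tested genes were called, so these counts were near or below the share of all genes. The interferon-induced Gbp2 and Gbp3 and the class I peptide trimmer Erap1 had higher values with the alginate oligosaccharide donors than with the control donors (log2 fold changes 0.28, 0.36 and 0.36). The part of macrophages and dendritic cells in the H2-Oa value was not tested.

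Ciita had 9 transcripts listed, and 3 of them held 62.6%, 27.3% and 8.04% of its RPKM. The most abundant was at 22.5, 25.2 and 23.2 RPKM in Con-sa, 21.6, 17 and 19.2 in B-sa, 20.4, 20.2 and 17.4 in B+Con-FMT and 19.5, 20.6 and 22.4 in B+A10-FMT. The second was at 12.9, 12.1 and 9.84 RPKM in Con-sa, 9.41, 5.35 and 7.77 in B-sa, 5.12, 8.8 and 7.19 in B+Con-FMT and 10.1, 10.2 and 9.67 in B+A10-FMT. The third was at 3.72, 3.04 and 3.13 RPKM in Con-sa, 2.12, 2.1 and 2.54 in B-sa, 1.84, 2.51 and 1.89 in B+Con-FMT and 3.35, 2.99 and 2.76 in B+A10-FMT. In the less abundant transcripts all B+A10-FMT mice were above all B-sa and B+Con-FMT mice, and in the most abundant one all Con-sa mice were above all 9 busulfan-treated mice, whose 3 groups overlapped one another. Reads shared by transcripts were divided by the authors' quantification, and no test was made of single transcripts. Of the 2 transcripts of Cd74, the less abundant held 10.1% to 12.1% of its RPKM in all 12 mice, with group means of 10.4% to 11.4%.

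H2-Eb1 stood apart from the other genes by its spread between mice. It was at 254, 157 and 393 RPKM in Con-sa, 368, 310 and 175 in B-sa, 249, 187 and 157 in B+Con-FMT and 198, 149 and 271 in B+A10-FMT. The highest and the lowest mouse differed by 2.65 times, against 1.33 times for H2-Ab1, and the groups overlapped in every comparison. Its coefficient of variation within groups was 36.1%, larger than that of 98.8% of the 4421 tested genes with a mean RPKM of at least 20, whose median was 5.66%. No comparison called it, with adjusted p of 0.542 to 0.965, and the interval between B-sa and Con-sa ran from -0.81 to 1.05 on the log2 scale, which is wider than the changes of Ciita and H2-Ob, so that changes of their size were not detectable in it. Across the 12 mice its Pearson correlation with the mean of the other 9 scaled genes was 0.05, while that of the other genes was 0.70 (H2-DMb2) to 0.91 (Cd74).

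H2-Ea, the alpha chain that pairs with H2-Eb1, was not among the 10 genes and was looked at after the values of H2-Eb1 were seen. The annotation on GRCm38 lists it as a transcribed pseudogene, because the C57BL/6J reference strain lacks a working copy. It was at 349, 243 and 534 RPKM in Con-sa, 507, 310 and 75.7 in B-sa, 338, 260 and 200 in B+Con-FMT and 267, 37.4 and 158 in B+A10-FMT. The highest mouse was 14.3 times the lowest, and mouse 3 of Con-sa and mouse 1 of B-sa were the highest for both H2-Ea and H2-Eb1, while mouse 2 of B+A10-FMT was the lowest for both. H2-Ea was not called in any of the 6 comparisons (adjusted p of 0.417 to 0.939). The class II chains are polymorphic, the stock is outbred and the submitters' processing notes name mm10, a C57BL/6J assembly, as the genome. The haplotypes of these mice were not analysed here, so alleles that map less well and lower transcript levels cannot be told apart.

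**Figure D5:**
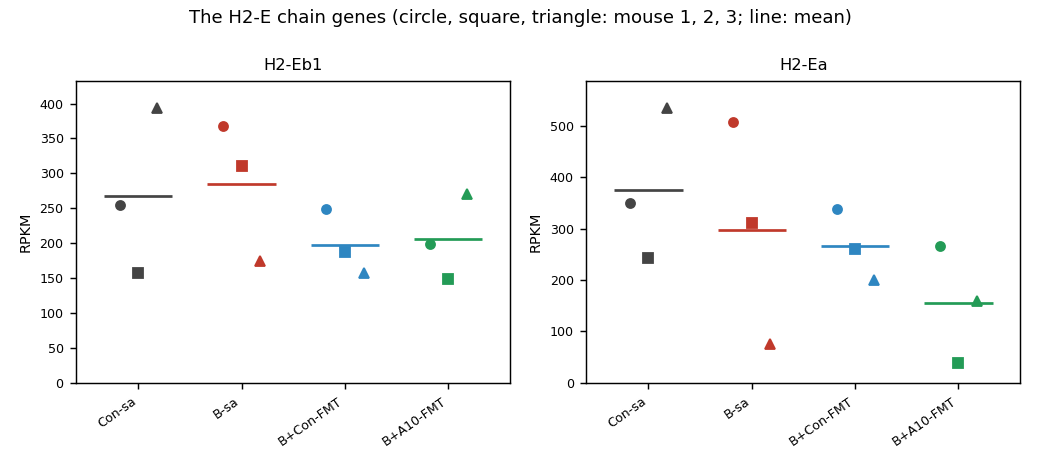
RPKM of H2-Eb1 and H2-Ea (vertical axes from 0) in each mouse, by group; shapes are mouse 1, 2 and 3 and lines are group means. Mouse 3 of Con-sa (393 and 534 RPKM) and mouse 1 of B-sa (368 and 507 RPKM) are highest in both panels and mouse 2 of B+A10-FMT (149 and 37.4 RPKM) is lowest in both.

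Among the 12661 other tested genes, Zfp939, Cd22, Gdpgp1 and Fcmr were among the 5 most like the class II genes. Likeness was Pearson's r over the 12 mice with the mean scaled value of the 10 genes, and it was 0.968, 0.965, 0.962 and 0.954 for these 4 genes. Cd22 and Fcmr were also on the list of B cell markers. All genes were read from the same 12 libraries, so these values describe a pattern over 4 groups and 12 mice.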

How the data were processed

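Spleen RNA of 12 male ICR mice was analysed, 3 per group, with groups and replicate numbers from the sample labels. The authors deposited 1 table of RPKM values per mouse, which lists 60654 RefSeq transcripts and no read counts. The study's methods name SOAPaligner and an Illumina sequencer, whereas the submitters' processing notes name HISAT, Bowtie2 and mm10 and the labels BGISEQ libraries, so which tools made the values is not settled. Strand use in counting is not given in the sources used here.

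RPKM were summed per gene (18221 genes, of which 18101 identifiers matched a symbol). The 12671 genes that reached an RPKM of 1 in 3 or more mice were tested as log2(RPKM + 1), which understates changes of low genes, with limma 3.58.1 in R 4.3.3 (trend and robust settings, all 12 mice, group as factor, two-sided, 6 comparisons). p-values were adjusted by Benjamini-Hochberg, with calls at an adjusted p under 0.05. Because comparisons shared groups, they are not independent. The test was checked on simulated data. Ratios were compared by exact permutation tests in Python 3.11.15. Depth was estimated and not read, so no counting intervals are given.

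The class II genes and all gene lists were chosen with earlier results of these data known. Named were the 10 genes, called genes and H2-Eb2, Rfx5, Ctss and Ifi30 of the class II pathway list, selected and called class I and interferon-gamma genes, the leading cell markers and the 5 most similar genes, and others were named after their values were seen. Some genes that this rule names are not reported here. Replicate numbers belong to different mice. Same-numbered mice correlated at -0.373 to 0.303, so the numbers were not treated as pairs. Alternatives were a pseudocount of 0.1, no filter, RPKM of at least 1 in every mouse, a replicate block, median-of-ratios scaling, equal totals outside globin genes, NM transcripts only, plain limma settings, fits restricted to the groups compared, omission of each mouse in turn, and scaling to B cell markers, which was added after the data were seen.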

Additional observations from a re-analysis of the deposited data

How the results depend on the processing

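Of 60 combinations of a class II gene and a comparison, 12 were called, and none of these 12 changed direction under a planned setting. The number of class II genes called, which was 6 between B-sa and Con-sa, was 2 when only these groups were fitted and 0 to 8 with 1 mouse left out. For B+A10-FMT against B-sa it was 1, and 0 to 2 with 1 mouse left out. For B+A10-FMT against B+Con-FMT it was 1, but 2 with RPKM of at least 1 in every mouse, 3 with equal totals outside the globin genes, 3 with only these groups, and 0 to 2 with 1 mouse left out. Between B+Con-FMT and Con-sa it was 4, but 8 with equal totals outside the globin genes and 0 to 3 with 1 mouse left out. Scaled to the B cell markers, it was 0 in all comparisons other than B+A10-FMT against Con-sa, where it was 1 (H2-Oa, log2 fold change 0.27, adjusted p = 0.0369). This scaling moved the median of all tested genes to 0.24 between B-sa and Con-sa. With the replicate block the numbers were 5, 0, 1, 1, 3 and 0, in the order B-sa against Con-sa, B+Con-FMT against B-sa, B+A10-FMT against B-sa, B+A10-FMT against B+Con-FMT, B+Con-FMT against Con-sa, and B+A10-FMT against Con-sa. The cause of these shifts was not tested.

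Over all genes, calls in that order were 1838, 107, 668, 1312, 1124 and 52. They ran from 741 to 1842, 25 to 180, 184 to 726, 546 to 2339, 382 to 1836 and 1 to 66 under the planned settings, and from 513 to 2100, 19 to 466, 106 to 832, 218 to 1160, 329 to 659 and 1 to 49 with 1 mouse left out.

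Directions turned only where no call had been made, except under the B cell scaling. Between B+Con-FMT and B-sa, equal totals outside globin gave H2-DMa -0.015, H2-DMb1 -0.010 and H2-Oa -0.021. Between B+A10-FMT and B+Con-FMT, median-of-ratios scaling gave H2-Ab1 -0.025, H2-Eb1 -0.014, H2-DMb1 -0.028 and Cd74 -0.035. Leaving out 1 mouse moved H2-Eb1 from -0.22 to 0.44 between B-sa and Con-sa. Between B+Con-FMT and B-sa it moved H2-DMa from -0.028 to 0.14, H2-DMb1 from -0.027 to 0.14, H2-Oa from -0.038 to 0.066, H2-Ob from -0.11 to 0.050 and Ciita from -0.13 to 0.063. Between B+A10-FMT and B-sa it moved H2-DMb1 from -0.003 to 0.16 and H2-Ob from -0.047 to 0.13. Between B+A10-FMT and B+Con-FMT it moved H2-Ab1 from -0.002 to 0.062, H2-Eb1 from -0.18 to 0.25, H2-DMb1 from -0.054 to 0.065 and H2-Ob from -0.018 to 0.14. Between B+A10-FMT and Con-sa it moved H2-Eb1 from -0.66 to 0.001 and H2-DMb2 from -0.11 to 0.081.

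Scaling to the B cell markers, which sets the markers' own change to about 0, turned the sign of H2-Aa (0.12), H2-Ab1 (0.052), H2-DMa (0.068), H2-DMb1 (0.030) and Cd74 (0.021) between B-sa and Con-sa, and of H2-Ab1 (0.098), H2-DMa (0.042), H2-DMb1 (0.010), H2-DMb2 (0.014) and Cd74 (0.052) between B+Con-FMT and Con-sa. It turned H2-Aa (0.14), H2-Ab1 (0.078), H2-DMa (0.054), H2-DMb2 (0.18), Cd74 (0.022) and Ciita (0.020) between B+A10-FMT and Con-sa. It turned H2-DMa (-0.025), H2-DMb1 (-0.021) and H2-Oa (-0.032) between B+Con-FMT and B-sa, H2-DMa (-0.014), H2-DMb1 (-0.043) and H2-Ob (-0.054) between B+A10-FMT and B-sa, and H2-Ab1 (-0.020), H2-Eb1 (-0.009), H2-DMb1 (-0.023) and Cd74 (-0.030) between B+A10-FMT and B+Con-FMT.

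With 3 mice per group, RPKM without counts and near copies among the class II genes, precision rests on the spread between mice, and each of the 12 calls was lost in at least 1 fit with 1 mouse left out, that of H2-Oa between B+Con-FMT and Con-sa in all 6.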
